A study of Mus musculus with 6 samples.

Results

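The genes described here are 10 of the 31053 genes measured in 6 single-cell RNA libraries of mouse melanoma: 7 genes for surface receptors of natural killer (NK) cells (Klrk1, Klrd1, Klrc1, Klrc2, Klre1, Klrb1c and Ncr1) and 3 genes for ligands of the receptor NKG2D (Raet1e, Ulbp1 and H60b). They were chosen by name, and each of the 10 symbols stood once in the gene list of every library. The tumours grew from YUMMER1.7 cells, an ultraviolet-exposed mouse melanoma line, after subcutaneous injection of 600000 cells into male C57Bl/6 mice aged 6 to 8 weeks. Libraries of 3 tumour samples from sedentary mice (numbers 1, 2 and 3) were compared with 3 from mice made to run on a treadmill (numbers 5, 6 and 8). The running speed was 12 m per minute, each daily run lasted 45 minutes and there were 14 running days. Both groups carried the same tumour line and no further drug or allele was named, so every tumour is a model of 1 transplanted line in 1 strain. Cells were released by a 15 minute enzyme digest at 37 degrees C without sorting, and each library is 1 sample of its group.

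NKG2D, the product of Klrk1, is an activating receptor of NK cells and of activated CD8 T cells that binds ligands put on the surface of stressed, infected or transformed cells. It signals through the adaptor DAP10 (gene Hcst) and, in mouse NK cells, also through DAP12 (Tyrobp). Raet1e and Ulbp1 encode the ligands RAE-1 epsilon and MULT1, and H60b encodes a member of the H60 family. CD94, the product of Klrd1, pairs either with the inhibitory NKG2A chain (Klrc1) or with the activating NKG2C chain (Klrc2), and both pairs read the non-classical class I molecule Qa-1 (H2-T23). Klre1 encodes a lectin-like receptor of NK cells that pairs with the products of Klri1 or Klri2. Ncr1 encodes NKp46, and Klrb1c encodes NK1.1, the antigen by which NK cells of this strain are usually recognised.

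After limits on genes, UMIs (unique molecular identifiers, each standing for 1 captured RNA molecule) and mitochondrial share, and after removal of called doublets, 51529 of 58351 barcodes remained. Libraries held between 97426009 and 131778565 UMIs, with a median of 5895 to 12426 UMIs per kept cell. Any pair of libraries shared 16 to 29 barcodes, at most 0.323% of the smaller library. Cells were assigned to classes by fixed marker genes that include no receptor or ligand of this report, and each class is named after those markers. The NK-like gate held 800 cells (74, 108 and 128 in the sedentary and 143, 202 and 145 in the exercise libraries), and the CD8 T-like gate held 2505 cells (414, 404 and 166 against 841, 294 and 386). The myeloid-like gate, set on macrophage and monocyte genes, held 5830 cells, and the tumour-like gate held 16925. Shares of these 4 classes overlapped between the groups. The NK-like share was 1.27 ± 0.297% in the sedentary and 1.81 ± 0.347% in the exercise libraries (SD, n = 3 each), a difference of 0.536 percentage points with an exact two-sided permutation p of 0.2, where 0.1 is the smallest p that 3 against 3 libraries allow.

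The markers that set the NK-like gate summed to 8521 CPM (UMIs of a gene scaled to a common total of all UMIs in that class and library) in NK-like and 1083 CPM in CD8 T-like cells. Cd8a and Cd8b1 were at 0 in NK-like cells, as the gate requires, and the 4 genes Cd3d, Cd3e, Cd3g and Trac, which the gate also limits, summed to 36.5 CPM there against 3272 CPM in CD8 T-like cells. Other T-cell receptor genes were read in NK-like cells: Trbc1 at 332 CPM and Trbc2 at 183 CPM, against 598 and 1232 CPM in CD8 T-like cells, and the gamma delta gene Trdc at 61.7 CPM against 0.744 CPM. Tumour-like cells carried Cdh2 at 57.6, Nes at 55.7, Cspg4 at 55.0, Met at 14.2 and Mitf at 12.1 CPM. Levels of these genes in other classes are not given here, so these values alone do not set the class apart. The pigment cell genes Pmel and Sox10 were nearly absent from tumour-like cells, at 0.257 CPM and 0. The class is thus defined by its gate and not by pigment cell genes. Fibroblast markers summed to 2332 CPM in tumour-like cells.

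Of the receptor genes, 6 lie on chromosome 6. Klre1, Klrd1, Klrk1, Klrc2 and Klrc1 stand within 101 kb of mouse build GRCm38 (chr6:129577905-129678973), together with the coding gene Klrc3, and Klrb1c lies apart at chr6:128778485-128789215. Ncr1 lies on chromosome 7 (chr7:4337724-4345164). The ligand genes lie on chromosome 10, Ulbp1 at chr10:7440362-7473638, Raet1e at chr10:22158569-22374139 and H60b at chr10:22158586-22288849. Annotated exons of Raet1e overlap those of H60b and of Raet1d on the same strand. Raet1d (chr10:22360552-22374139) lies within the annotated span of Raet1e and ends at the same base. In the 3' ends from which the reads come, 51.1% of the 60-base words of Raet1e also occur in Raet1d. Of those of Raet1d, 80.3% also occur in Raet1e. For Klrc1, 37.5% also occur in Klrc2 or Klrc3. The share was 12.98% for Klrc2, 15.8% for Klrb1c (shared with Klrb1a, Klrb1b and Gm44511) and 0 for the others of the 10 genes. Splitting of reads between such genes was not tested, so levels of Raet1e, Raet1d, Klrc1, Klrc2 and Klrb1c are uncertain to that extent.

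The RefSeq promoter table of build GRCm38.p6 held entries for 8 of the 10 genes. The bases just before a listed start of Raet1e and of Raet1d are shown because these genes share much of their sequence, while their levels below differ between classes. For Raet1e it is the downstream of its 2 listed starts (chr10:22173251-22173498, plus strand). The Raet1d bases are at chr10:22361646-22361893, plus strand. Both annotated genes begin further upstream, that of Raet1d at chr10:22360552. The stretches shown are identical at 245 of 248 bases, and capitals mark the 3 that differ.
Raet1e: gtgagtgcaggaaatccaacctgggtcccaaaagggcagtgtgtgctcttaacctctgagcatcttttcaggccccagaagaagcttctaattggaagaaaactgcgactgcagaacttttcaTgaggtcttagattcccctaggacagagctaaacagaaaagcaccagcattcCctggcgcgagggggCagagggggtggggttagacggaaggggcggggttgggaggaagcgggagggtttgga
Raet1d: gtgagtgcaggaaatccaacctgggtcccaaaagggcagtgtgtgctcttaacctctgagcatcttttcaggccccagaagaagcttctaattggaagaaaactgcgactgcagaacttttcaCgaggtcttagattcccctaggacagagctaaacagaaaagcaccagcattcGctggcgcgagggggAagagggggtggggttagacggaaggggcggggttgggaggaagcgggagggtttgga
Both hold the letters CCAAT and GCGCG on either strand, as do 33.7% and 25.6% of the windows of this length in the 32851 entries of the table. The 89 bases before the first exon of Ulbp1 (chr10:7473639-7473727, minus strand) are shown because Ulbp1 differed most between dividing and other cells; capitals mark CCAAT.
Ulbp1: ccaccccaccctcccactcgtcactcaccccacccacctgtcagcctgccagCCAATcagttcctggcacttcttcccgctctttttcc
In windows of this length just before the listed start of an entry, CCAAT occurs on either strand in 17.2% and GCGCG in 17.0%. GCGCG is not in the bases shown, which lie further upstream in the Ulbp1 entry than those windows. The whole 300-base entry of Ulbp1 holds GCGCG and TTTGAA, as do 29.7% and 17.9% of all entries, and the entry of the other Raet1e start holds neither CCAAT nor GCGCG.

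All 7 receptor genes were read in NK-like cells of every library, and their levels parted into genes shared with CD8 T-like cells and genes that were nearly absent there. Klrk1 was read at 733, 753 and 575 CPM in NK-like cells of the sedentary libraries and at 797, 718 and 565 CPM in those of the exercise libraries. In CD8 T-like cells it stood at 378, 436 and 342 CPM and at 408, 398 and 296 CPM. Every NK-like value lay above every CD8 T-like value, and the groups overlapped within each class. Klrk1 was 0.92 higher in NK-like cells on the log2 scale (95% interval 0.78 to 1.07, adjusted p = 2.21e-09, edgeR's quasi-likelihood test with the library as a block and Benjamini-Hochberg adjustment over 6022 genes; the class comparisons that follow used the same test, each adjusted over its own tested genes).

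Klrd1, the shared CD94 chain, was read at 850 ± 79.1 CPM in NK-like and 690 ± 83.0 CPM in CD8 T-like cells (SD, n = 6 libraries). Its difference was 0.35 (95% interval 0.21 to 0.49, adjusted p = 0.00045). In UMIs, Klrd1 had 2009 in 800 NK-like and 6598 in 2505 CD8 T-like cells. Klrd1 was thus not higher per NK-like cell. Its inhibitory partner Klrc1 went the other way: 94.1, 131 and 90.9 CPM in NK-like cells of the sedentary and 117, 114 and 111 CPM in those of the exercise libraries stood below 189, 223, 170, 186, 175 and 150 CPM in CD8 T-like cells. The libraries of both classes did not overlap. The difference was -0.67 (95% interval -0.88 to -0.46, adjusted p = 3.27e-05). The activating partner Klrc2 was higher in NK-like cells, at 157 ± 28.7 against 110 ± 12.9 CPM (log2 difference 0.55, adjusted p = 0.000164).

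Klre1 was read at 443 ± 44.7 CPM in NK-like and 185 ± 35.4 CPM in CD8 T-like cells, a difference of 1.34 (95% interval 1.13 to 1.54, adjusted p = 1.73e-09). Klrb1c stood at 403, 531, 500, 481, 478 and 429 CPM in NK-like cells and at 6.76, 7.26, 6.95, 3.14, 8.21 and 7.09 CPM in CD8 T-like cells (log2 difference 6.27, adjusted p = 3.97e-17). Ncr1 stood at 467, 379, 323, 457, 472 and 268 CPM in NK-like cells, while CD8 T-like cells held 4, 0, 0, 5, 3 and 0 UMIs of it in all. Its fitted difference of 8.23 rests on those 12 UMIs and depends on the prior count. Klrb1c and Ncr1 thus marked the NK-like gate with hardly any signal in CD8 T-like cells, whereas the 5 genes of the 101 kb stretch were read in both classes. In this comparison 8 of the 10 genes passed the filter on low counts; 6 were higher in NK-like cells, against 15.8% of all genes tested, and Klrc1 and Ulbp1 were lower, against 15.6%.

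**Figure D1:**
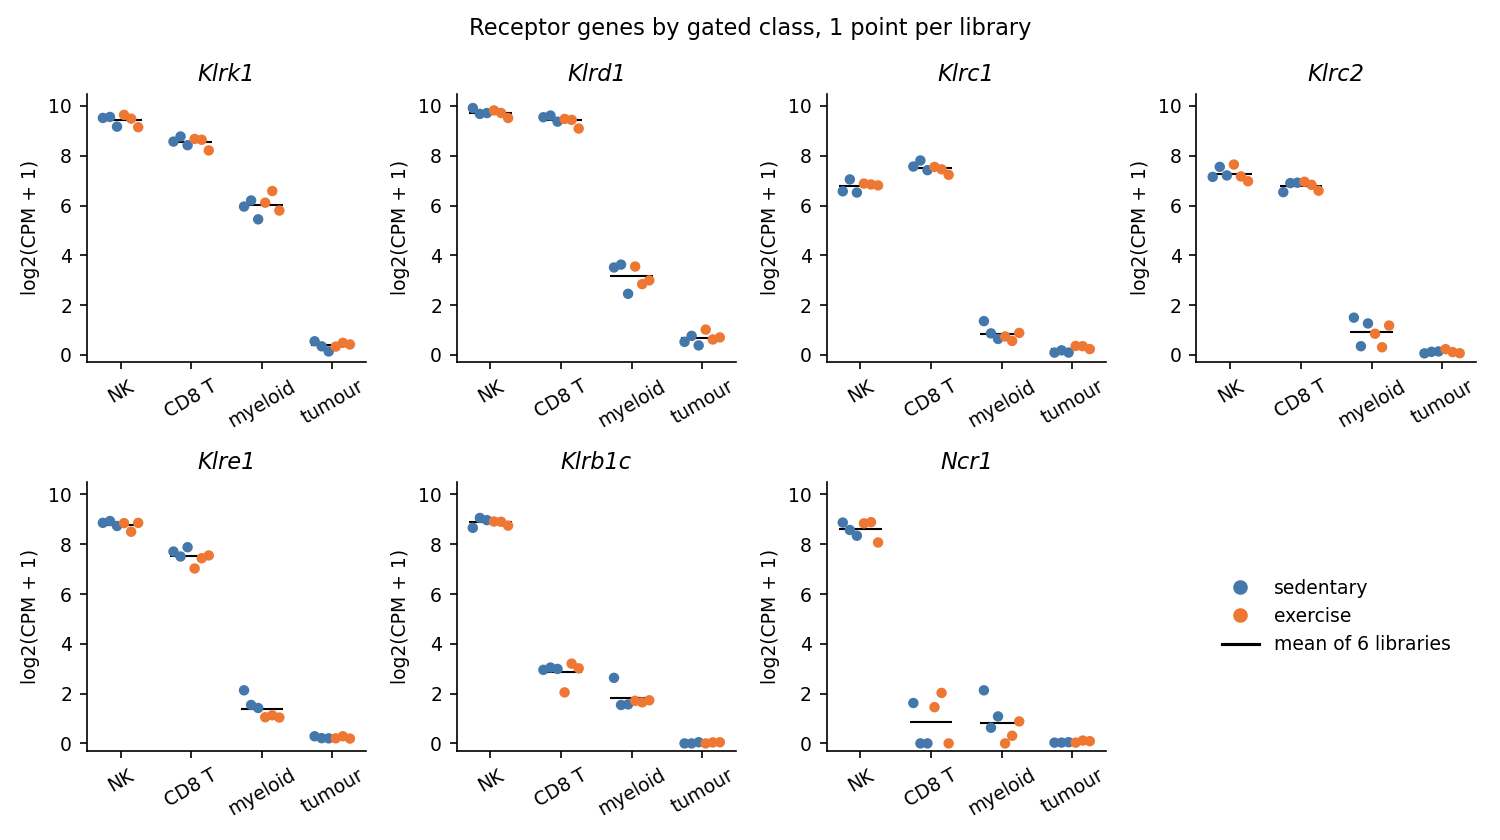
Receptor genes in NK-like, CD8 T-like, myeloid-like and tumour-like cells; the y axis is log2(CPM + 1), each point is 1 library (blue sedentary, orange exercise) and the line is the mean of 6 libraries. Klrb1c and Ncr1 fall by several log2 units from NK-like to CD8 T-like cells, Klrc1 is higher in CD8 T-like cells, and Klrk1 stays between 42.6 and 94.8 CPM in myeloid-like cells while the other receptor genes drop further.

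Around the receptors, genes outside the gates were counted by list. Of 14 adaptor and signalling genes that passed the filter, 5 were higher and 5 lower in NK-like cells and 4 did not pass the test, with a median log2 difference of 0.09 against 0.01 over all genes, of which 15.8% were higher and 15.6% lower. Inpp5d, the phosphatase SHIP1, was higher (106 ± 12.998 against 52.8 ± 6.66 CPM, adjusted p = 1.35e-06), and so was the kinase gene Fyn. Ptpn6, the phosphatase SHP-1 that NKG2A recruits, was lower (86.9 ± 31.1 against 143 ± 17.6 CPM, adjusted p = 0.000178), as was the T-cell kinase gene Lck. Of 18 other receptors of NK cells, 10 were higher and 4 lower, with a median of 0.37. Cd244, the receptor 2B4, was higher (122 ± 15.8 against 50.1 ± 13.9 CPM, adjusted p = 8.79e-08) and its ligand Cd48 was lower (73.3 ± 14.8 against 161 ± 20.5 CPM, adjusted p = 4.28e-07). The receptor genes Cd160 and Cd27 were lower and Il18rap was higher in NK-like cells.

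Within CD8 T-like cells, cells with Havcr2 (the exhaustion-associated receptor TIM-3; 837 cells) were set against cells with Tcf7 (the factor TCF1 of memory-like T cells) and no Havcr2. The latter were few: 24, 20, 7, 32, 9 and 14 cells per library. Klre1 differed most: 251, 192, 264, 138, 126 and 180 CPM in Havcr2 cells stood against 99.4, 49.5, 186, 51.6, 0 and 66.5 CPM in Tcf7 cells, and each library was higher in Havcr2 cells (log2 difference 1.22, 95% interval 0.65 to 1.78, adjusted p = 0.00448). Klrk1 was read at 388, 410, 359, 387, 368 and 291 CPM against 237, 98.9, 106, 292, 189 and 233 CPM (0.74, adjusted p = 0.0339). Only the highest Tcf7 value reached the lowest Havcr2 value. Klrd1 (0.71, adjusted p = 0.01003) and Klrc1 (0.94, adjusted p = 0.0311) were also higher in Havcr2 cells. For Klrc2 the difference was 0.14 with a 95% interval from -0.37 to 0.65 (adjusted p = 0.79). Of the 5 genes that passed the filter 4 were higher, against 6.34% of all genes tested, and none was lower, against 8.03%. The calls of Klrk1 and Klrc1 were lost without some of the libraries. For Klrk1 the adjusted p was 0.0704, 0.173 and 0.0759 without sedentary library 1, 2 or 3 and 0.052 without exercise library 6, with differences from 0.51 to 0.82. For Klrc1 it was 0.132, 0.161 and 0.0661 without sedentary library 1, 2 or 3, 0.0593 without exercise library 5 and 0.0501 with DESeq2. Klrd1 fell to 0.62 (adjusted p = 0.0748) without exercise library 5.

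Detection in the same cell was described at a common depth of 1500 UMIs per cell. Of CD8 T-like cells with a Klrk1 UMI 66.3% also held a Klrd1 UMI, against 59.8% of those without, and the share was higher in all 6 libraries. Klrd1 was found with Klre1 in 72.1% against 60.04% of CD8 T-like cells, again in all 6 libraries. CD94 and its own partner chains gave no single direction. Klrd1 was found in 68.7% of CD8 T-like cells with Klrc1 against 60.7% of those without (higher in 5 of 6 libraries), but in 61.2% with Klrc2 against 63.0% without (higher in 2 of 6). In NK-like cells it was found in 66.0% with Klrc1 against 69.7% without (higher in 2 of 6) and in 71.4% with Klrc2 against 68.5% without (higher in 3 of 6). The NKG2 chains did not exclude each other: Klrc2 was found in 20.6% of CD8 T-like cells with Klrc1 and in 14.1% of those without, and in 21.6% and 21.9% of NK-like cells. Both genes share words at their 3' ends, as given above, and the part of this in the shares was not tested.

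Klrk1 was also read in myeloid-like cells, without the other receptor genes in proportion. It stood at 61.2, 72.6 and 42.6 CPM in the sedentary and 68.3, 94.8 and 54.6 CPM in the exercise libraries, with the 2 groups overlapping. A Klrk1 UMI was found in 1333 of 5830 myeloid-like cells (22.9%), against 0.591% of tumour-like cells, whose median depth was higher (17391 against 4654 UMIs). The tumour-like gate allowed no UMI of the immune genes Ptprc and Tyrobp, and the part of this in the difference was not tested. Klrd1 was read at 8.35 ± 2.85 CPM in myeloid-like cells (SD, n = 6). Klrk1 made up 88.2% of the UMIs of both genes there (85.5 to 93.9% across libraries), against 44.9% in NK-like, 35.4% in CD8 T-like and 34.2% in tumour-like cells. No library of the NK-like class reached above 47.9%. The NK gate markers summed to 34.1 CPM in myeloid-like cells, with 34.8 to 50.7 CPM in the sedentary and 23.6 to 34.0 CPM in the exercise libraries, and all 11 of them were detected. The highest of them was Klra4, at 9.96 CPM. That gene was not confined to NK-like cells here: tumour-like cells held it at 132 CPM.

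**Figure D2:**
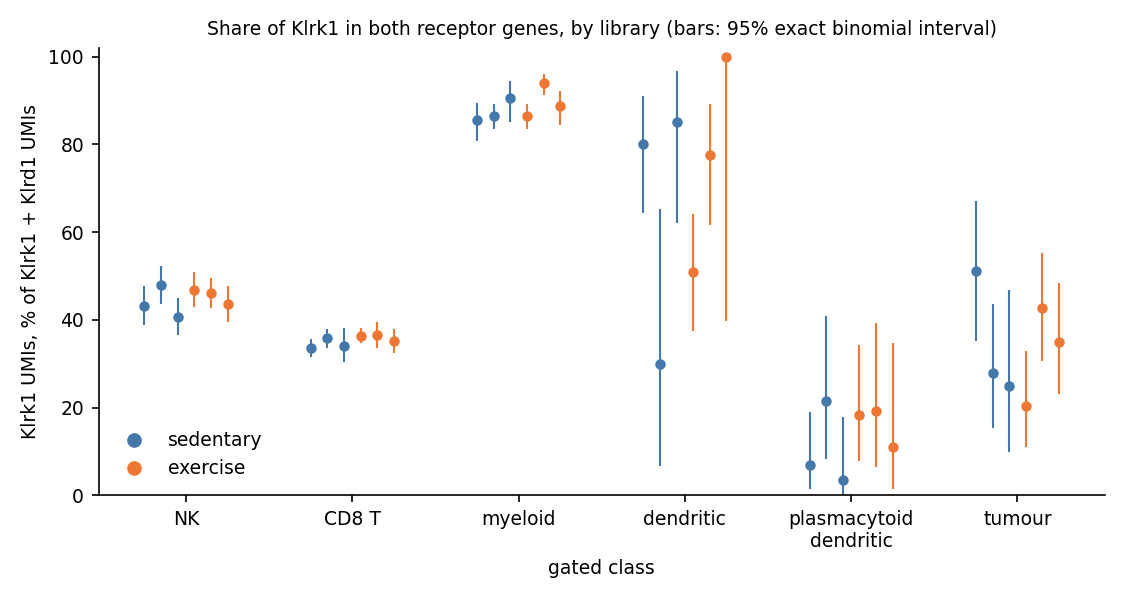
UMIs of Klrk1 as a percentage of Klrk1 and Klrd1 UMIs together (y axis) in 6 gated classes; each point is 1 library and bars are exact 95% binomial intervals, which cover counting error only. Myeloid-like libraries lie between 85.5 and 93.9%, NK-like libraries between 40.6 and 47.9% and CD8 T-like libraries between 33.6 and 36.5%.

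As a description of the myeloid-like cells chosen by their Klrk1 UMI, for genes picked after the data were seen, Itgax (CD11c) was detected in 54.2% of them against 36.1% of the rest and the class II gene H2-Ab1 in 94.0% against 84.3%. Of the T-cell genes, Cd3e was found in 0.750% against 0.778% and Trac in 0.525% against 0.823%. Cd3g was found in 1.65% against 1.36% and Cd8a in 1.20% against 1.07%. Of the macrophage genes, Adgre1 was found in 35.6% against 40.1% and Lyz2 in 97.7% against 97.8%. Csf1r was found in 83.5% against 78.6% and C1qa in 69.8% against 67.6%. NK genes were higher in the cells with Klrk1: Klrd1 was found in 6.75% against 2.36% (20.2 against 4.96 CPM), Klrb1c in 1.73% against 0.667% (5.41 against 1.48 CPM) and Ncr1 in 0.525% against 0.156% (2.21 against 0.348 CPM). The NK gene Gzma was found in 1.95% against 1.05% (22.6 against 5.09 CPM). The part of NK cell RNA in the Klrk1 level of myeloid-like cells was not tested. Cells with a Klrk1 UMI were deeper (median 5516 against 4358 UMIs), and shares of detection were not matched for depth here. Dendritic-like cells (113 cells with Flt3 and at least 3 dendritic genes) held Klrk1 at 128 CPM over all libraries, with no UMI of Klrb1c or Ncr1. That level is higher than in myeloid-like cells but rests on 117 UMIs.

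Among myeloid-like cells, those with complement genes (at least 2 of C1qa, C1qb and C1qc) were compared with those carrying Ly6c2 or Ccr2 without them, a comparison added after the data were seen. Klrk1 was lower in the C1q cells, at 61.1 ± 18.3 against 81.7 ± 22.9 CPM (log2 difference -0.46, adjusted p = 0.000887); with a gate that allows no marker of another class it was -0.33 with an adjusted p of 0.179. Per cell it was higher in the C1q cells, at 0.374 against 0.312 UMIs. Klrd1 was lower as well (-0.92, adjusted p = 0.00512). Without exercise library 5 its adjusted p was 0.0625. Ulbp1 was higher in the C1q cells, at 17.2 ± 3.53 against 6.35 ± 4.38 CPM (1.60, adjusted p = 0.000112). These were the only genes of the 10 past the filter: 1 was higher, against 18.5% of all genes tested, and 2 were lower, against 18.4%. The 2B4 gene Cd244 was lower in C1q cells (-1.62, adjusted p = 5.38e-12), and Mmp14, a protease that cleaves surface proteins, was higher (0.97, adjusted p = 1.61e-08).

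Among the ligands, Raet1e was higher in tumour-like than in myeloid-like cells. It was read at 6.81, 12.6 and 10.9 CPM in tumour-like cells of the sedentary and at 19.6, 14.5 and 13.8 CPM in those of the exercise libraries, from 310 to 1056 UMIs per library. In myeloid-like cells it stood at 0.781, 6.84 and 3.36 CPM and at 2.28, 1.66 and 1.48 CPM, from 3 to 50 UMIs. Tumour-like cells were higher in each of the 6 libraries, by 2.16 on the log2 scale (95% interval 1.52 to 2.80, adjusted p = 1.73e-05). In NK-like and CD8 T-like cells 4 and 15 UMIs of Raet1e were found in all.

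Ulbp1 was spread over the classes. It was read at 12.1, 12.96 and 9.64 CPM in tumour-like cells of the sedentary and 14.8, 9.98 and 8.04 CPM in those of the exercise libraries. Myeloid-like cells held 19.5, 10.53 and 15.97 CPM and 16.3, 13.8 and 11.8 CPM. CD8 T-like cells held 29.1, 28.5 and 31.3 CPM and 22.0, 34.9 and 27.7 CPM, above every library of the other 3 main classes on this scale. Counted per cell the order differed, and tumour-like cells held most. The 16925 tumour-like cells held 3609 Ulbp1 UMIs, the 2505 CD8 T-like cells 257 and the 5830 myeloid-like cells 445. As a share of RNA, the difference of tumour-like from myeloid-like cells was -0.42 (95% interval -0.70 to -0.14, adjusted p = 0.00924). Under the stricter gate it was -0.20 with an adjusted p of 0.176. NK-like cells were lower than CD8 T-like cells in Ulbp1 (-1.18, 95% interval -1.71 to -0.65, adjusted p = 0.00113), with only 2 to 10 UMIs per NK-like library.

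H60b was hardly read: 60 UMIs in all 51529 cells. Of these 20 lay in myeloid-like, 9 in CD8 T-like and 3 in NK-like cells. Tumour-like cells held 0, 0 and 0 UMIs in the sedentary and 1, 1 and 1 in the exercise libraries. In CPM the tumour-like exercise libraries stood at 0.0218, 0.0137 and 0.0161. Myeloid-like cells stood at 0.260, 1.23 and 0.840 CPM in the sedentary and 0.268, 0.475 and 0.633 CPM in the exercise libraries. The gene did not pass the filter in the comparison of tumour-like with myeloid-like cells and was not tested there. There 7 of the 10 genes passed; Raet1e was higher in tumour-like cells, against 40.9% of all genes tested, and 6 were lower (Ulbp1 and the receptor genes Klrk1, Klrd1, Klrc1, Klre1 and Klrb1c), against 38.5%.

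**Figure D3:**
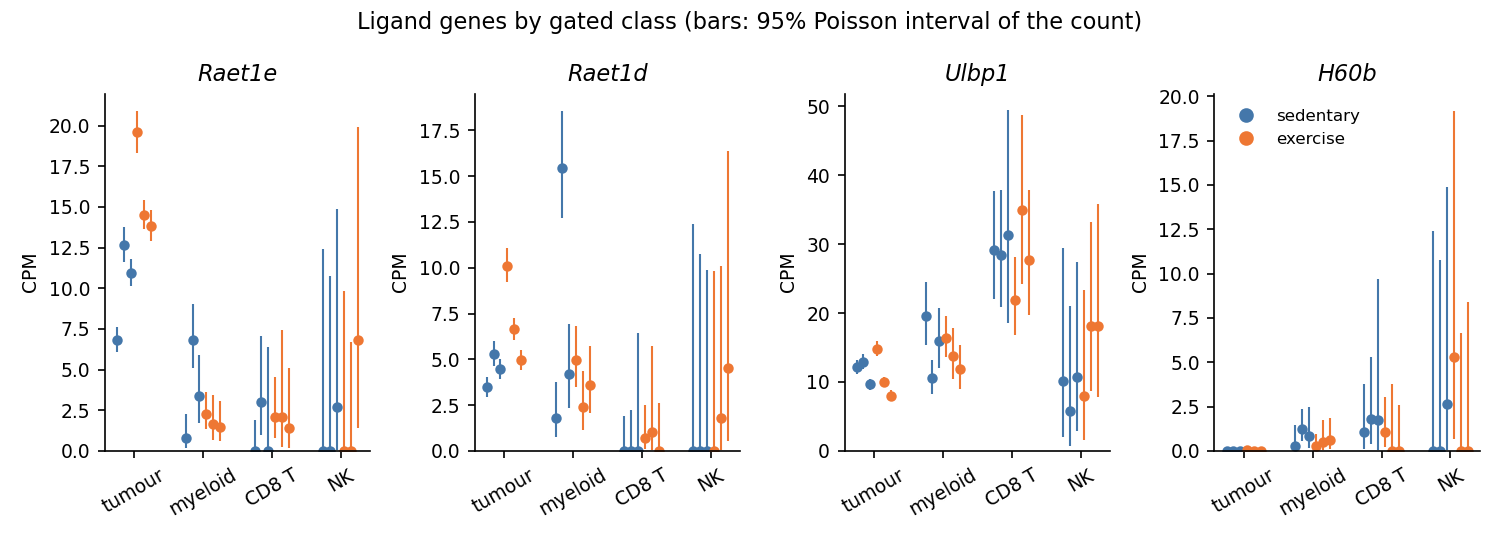
Raet1e, Raet1d (which lies within the annotated span of Raet1e), Ulbp1 and H60b in CPM (y axis, linear) by gated class. Each point is 1 library and bars are 95% Poisson intervals of its count. Of the classes shown, Raet1e is highest in tumour-like cells, at 6.81 to 19.6 CPM, Ulbp1 is highest in CD8 T-like cells, at 22.0 to 34.9 CPM, and the high Raet1d point among myeloid-like cells is sedentary library 2.

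The remaining classes held few cells, and their levels over all libraries are given with the UMIs behind them. CD4 T-like cells (142 cells) held Klrd1 at 212 CPM, Klrc1 at 64.9 CPM and Klrk1 at 62.0 CPM, from 72, 22 and 21 UMIs, below the CD8 T-like levels of 702, 186 and 385 CPM. Regulatory T-like cells (191 cells) held Klrd1 at 23.1 CPM and Klrk1 at 3.08 CPM, from 15 and 2 UMIs. In B-like, fibroblast-like and endothelial-like cells at most 1 UMI of any receptor gene was found. Of the ligands, Raet1e reached 30.6 CPM in the 32 endothelial-like cells, from 9 UMIs.

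Raet1d, which shares its 3' end with Raet1e as given above, was read with another balance. It stood at 3.47, 5.30, 4.45, 10.1, 6.65 and 4.94 CPM in tumour-like cells and at 1.82, 15.5, 4.20, 4.96, 2.38 and 3.59 CPM in myeloid-like cells, where sedentary library 2 stood far above the rest. Its difference between these classes was 0.11 (95% interval -0.64 to 0.86, adjusted p = 0.777). Raet1e made up 69.4% of the UMIs of both genes in tumour-like and 32.5% in myeloid-like cells. Since 80.3% of the 3' words of Raet1d also occur in Raet1e, these shares depend on how reads were assigned, which was not tested. Raet1d was higher in the monocyte than in the C1q cells (C1q minus monocyte -1.46, adjusted p = 0.000255).

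Other ligands of NK receptors were mostly lower in tumour-like than in myeloid-like cells: of 12 that passed the filter, 1 was higher and 9 were lower, against 40.9% and 38.5% of all genes tested, with a median log2 difference of -1.11 against 0.04 over all genes. H2-T23, which encodes the Qa-1 ligand of the CD94 receptors, was read at 63.5 ± 9.19 against 188 ± 27.3 CPM (-1.63, adjusted p = 7.63e-11). Clec2d, the ligand of an inhibitory receptor of the Klrb1 family, was lower too (-1.36, adjusted p = 9.47e-08), and so was Cadm1, a ligand of the receptor CRTAM (-0.87, adjusted p = 0.000247). Of the shedding and cytokine genes 5 of 9 were lower and none was higher, with a median of -0.61, where 38.5% of all genes tested were lower. Among them were Tgfb1 (33.5 ± 6.21 against 331 ± 48.4 CPM, adjusted p = 4.34e-11), Il15 (6.92 ± 1.89 against 23.8 ± 4.01 CPM, adjusted p = 9.69e-08) and Adam17, a protease that sheds surface ligands (-1.08, adjusted p = 9.69e-09). Hcst was read at 0.706 ± 0.205 against 43.9 ± 3.20 CPM. All of these are shares of the RNA of a cell. Tumour-like cells held more UMIs (a median of 17391 against 4654), and levels per cell were not compared for these lists.

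Ulbp1 was higher in dividing than in other cells. Dividing cells were those with at least 2 of Mki67, Top2a, Cdk1, Ccnb1 and Birc5, and other cells those with none. In tumour-like cells Ulbp1 was read at 19.3, 18.5, 16.5, 19.6, 13.5 and 13.2 CPM in dividing and at 3.11, 3.94, 3.95, 4.31, 2.16 and 2.66 CPM in other cells. All 6 dividing values lay above all other values (log2 difference 2.26, 95% interval 2.06 to 2.47, adjusted p = 1.04e-10). Raet1e was higher in dividing tumour-like cells by less, at 15.1 ± 4.54 against 10.48 ± 3.59 CPM (0.49, 95% interval 0.29 to 0.69, adjusted p = 0.000374), and in each of the 6 libraries. Raet1d was higher by 1.67 (adjusted p = 3.92e-08). With Klrd1, lower at 0.496 ± 0.258 against 0.840 ± 0.259 CPM from 91 and 52 UMIs, 3 of the 10 genes passed the filter; 2 were higher, against 31.2% of all genes tested, and 1 was lower, against 33.0%.

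The same split was made in CD8 T-like and myeloid-like cells after this was seen. Ulbp1 was read at 38.1, 59.4, 53.1, 32.6, 47.8 and 28.1 CPM in dividing and at 14.5, 6.36, 11.7, 10.1, 17.9 and 14.3 CPM in other CD8 T-like cells (1.76, 95% interval 1.20 to 2.31, adjusted p = 5.47e-05). In myeloid-like cells it was 30.4 ± 5.75 against 8.76 ± 2.997 CPM (1.80, 95% interval 1.41 to 2.20, adjusted p = 7.93e-08). The groups of cells did not overlap in either class. Receptor genes went the other way on this scale. In CD8 T-like cells Klrd1 was read at 537 ± 105 in dividing and 886 ± 122 CPM in other cells (-0.75, 95% interval -0.94 to -0.56, adjusted p = 3.45e-06), and Klrk1 at 323 ± 50.3 against 463 ± 89.1 CPM (-0.54, adjusted p = 0.000113; adjusted p = 0.0666 under the stricter gate). Klrc1 was lower by less (-0.36, adjusted p = 0.0151), a call lost without sedentary library 1 (adjusted p = 0.0768) or exercise library 5 (adjusted p = 0.0959), with DESeq2 (adjusted p = 0.109) and without the filter on low counts (adjusted p = 0.136). The differences of Klre1 (-0.30, 95% interval -0.57 to -0.03, adjusted p = 0.0888) and Klrc2 (-0.17, 95% interval -0.49 to 0.15, adjusted p = 0.419) did not pass.

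Of the 6 genes that passed the filter in CD8 T-like cells 1 was higher in dividing cells, against 15.8% of all genes tested, and 3 were lower, against 15.9%. In myeloid-like cells Klrk1 was lower in dividing cells (49.0 ± 16.5 against 76.0 ± 19.2 CPM, -0.72, adjusted p = 2.33e-05), as was Klrd1 (-0.70, adjusted p = 0.0449; lower in 4 of 6 libraries), whose call was lost without sedentary library 1, 2 or 3 (adjusted p = 0.13, 0.27 and 0.0921), without exercise library 8 (adjusted p = 0.0848), with DESeq2 (adjusted p = 0.19), with the mitochondrial limit of 10% (adjusted p = 0.0541) and with doublets kept (adjusted p = 0.128). There 1 of the 3 genes past the filter was higher, against 16.4% of all genes tested, and 2 were lower, against 17.8%. These are shares of the RNA of a cell. Dividing cells held more UMIs (in CD8 T-like cells a median of 5691 against 2260), and counted per cell Klrk1 was higher in dividing CD8 T-like cells, at 2.05 against 1.16 UMIs, as was Klrd1 at 3.47 against 2.18. In dividing myeloid-like cells Klrk1 was also higher per cell, at 0.416 against 0.341 UMIs, as was Klrd1 at 0.0585 against 0.0496. Ulbp1 per cell was 0.250 against 0.0282 UMIs in CD8 T-like and 0.411 against 0.0466 UMIs in tumour-like cells. Raet1e was 0.390 against 0.146 UMIs per tumour-like cell. Ulbp1 and Raet1e were thus higher on both scales, while Klrk1 and Klrd1 in CD8 T-like and myeloid-like cells were lower in CPM and higher per cell.

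**Figure D4:**
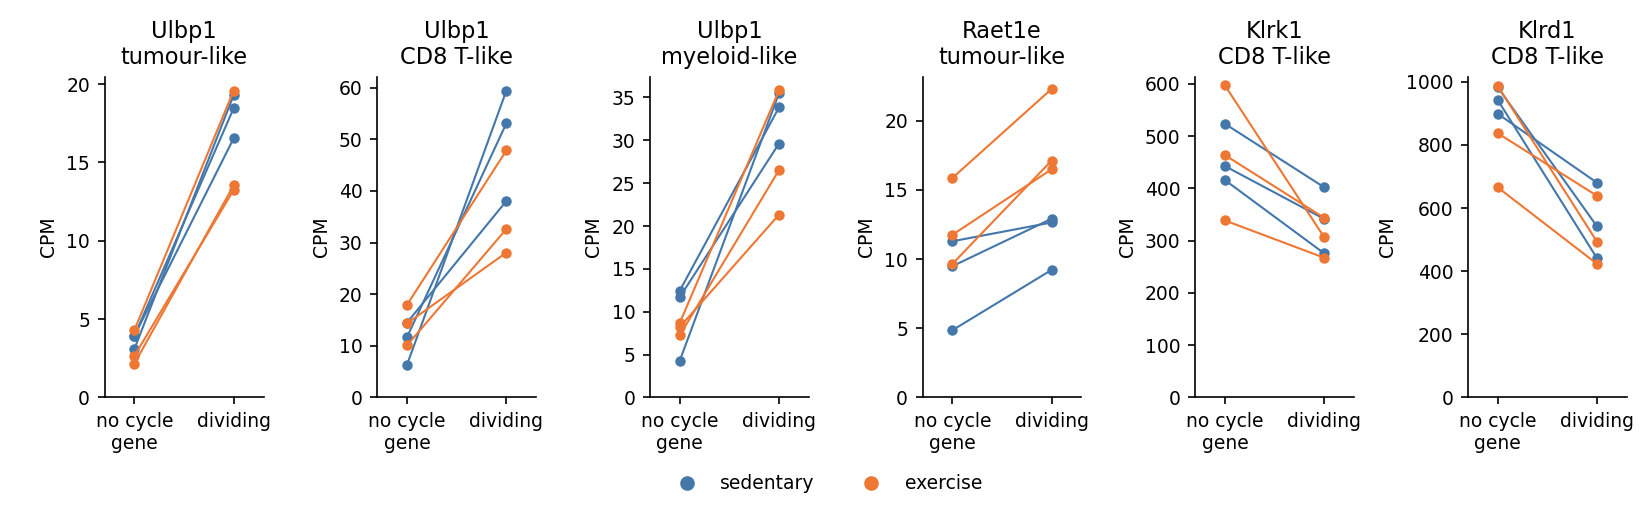
Levels in CPM (y axes, linear, from 0) in cells with none and with at least 2 of 5 cell cycle genes; each line joins both values of 1 library (blue sedentary, orange exercise). Ulbp1 rises in all 6 libraries in each of 3 classes, Raet1e rises in all 6 in tumour-like cells, and Klrk1 and Klrd1 fall in all 6 in CD8 T-like cells.

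In dividing CD8 T-like cells the lists differed, where 15.9% of all genes tested were lower and 15.8% higher. Of 11 adaptor genes 6 were lower and none higher, with a median log2 difference of -0.49 against -0.05 over all genes. Hcst, the adaptor of NKG2D, was read at 336 ± 54.9 against 823 ± 176 CPM (-1.33, adjusted p = 1.01e-08). Of 13 other receptors of NK cells 9 were lower and none higher, among them Slamf7 (-1.10, adjusted p = 6.50e-06) and Cd226, the receptor DNAM-1 (-0.93, adjusted p = 0.00102). Of 6 other ligands 4 were lower and none higher, while of 7 shedding and cytokine genes 2 were higher and none lower, namely Mif (0.48, adjusted p = 0.000183) and Pdia6 (0.51, adjusted p = 0.00303). In dividing tumour-like cells the ligands H2-T23 (46.1 ± 7.94 against 84.9 ± 18.9 CPM, adjusted p = 1.43e-08) and Clec2d (-1.12, adjusted p = 1.37e-10) were lower. Of the 9 genes of that list past the filter 5 were lower and 1, Raet1d, was higher, against 33.0% and 31.2% of all genes tested, with a median of -0.21. These list values too are shares of the RNA of a cell. Dividing cells held more UMIs in both classes, and levels per cell were not compared for the lists.

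Exercise was then tested in each class over 3 sedentary and 3 exercise libraries with edgeR's quasi-likelihood test. No receptor or ligand gene passed in any class. In NK-like cells 7 of the 10 genes passed the filter on low counts and none was called, against 0.0415% of all genes tested. The Klrk1 values of both groups, given above, overlapped; the fitted log2 difference was -0.02 with a 95% interval from -0.36 to 0.31, and that of Ncr1 was 0.00 with an interval from -0.42 to 0.42. Intervals of the other 5 receptor genes lay within -0.49 and 0.49. In CD8 T-like cells none of 7 was called, against 0.0113% of all genes tested. Klre1 had the smallest p of these genes: 208, 181 and 235 CPM in the sedentary and 129, 172 and 186 CPM in the exercise libraries, overlapping by 1 value, gave -0.38 (95% interval -0.71 to -0.06, adjusted p = 1). All 7 fitted differences in CD8 T-like cells were below 0, with a median of -0.20 against -0.003 over all genes. Fibroblast markers in CD8 T-like cells summed to 393 to 556 CPM in the sedentary and 227 to 340 CPM in the exercise libraries, without overlap, and their part in these values was not tested.

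Shares of cells with a UMI were compared at 1500 UMIs per cell for 20 pairs of gene and class. Of the NK-like cells 641 of 800 were deep enough, and of the CD8 T-like cells 2034 of 2505. The adjusted p was 0.941 or 1 in each (exact two-sided permutation test over 3 against 3 libraries). The thinned share of NK-like cells with Klre1 was 56.4 ± 0.742% in the sedentary and 46.9 ± 4.23% in the exercise libraries (SD, n = 3 each, exact permutation p = 0.1, the smallest possible). Unthinned, the shares were 79.7, 71.3 and 71.1% against 69.9, 59.4 and 65.5%. The libraries of the groups did not overlap, while the CPM of Klre1 in the same cells did (464, 487 and 425 against 460, 362 and 463 CPM).

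In tumour-like cells the groups did not overlap in the CPM of Raet1e: the lowest exercise library, at 13.8 CPM, stood above the highest sedentary library, at 12.6 CPM. The fitted log2 difference was 0.65 (95% interval 0.09 to 1.21), with an adjusted p of 0.81 over 13377 genes, and 0.41 without sedentary library 1. In cells thinned to 1500 UMIs the share with Raet1e was 1.24 ± 0.583% in the sedentary and 2.12 ± 0.429% in the exercise libraries (SD, n = 3 each, exact permutation p = 0.2), and the groups overlapped. As a description, at 3000 UMIs the shares were 1.43, 2.60 and 2.25% in the sedentary libraries. In the exercise libraries they were 4.98, 3.52 and 3.35%, without overlap at this depth. Raet1d gave 0.71 (95% interval 0.08 to 1.34, adjusted p = 0.81), and the groups overlapped. Summed over both genes, tumour-like cells held 14.5 ± 3.90 CPM in the sedentary and 23.2 ± 5.74 CPM in the exercise libraries (SD, n = 3 each, exact permutation p = 0.1, the smallest possible). For Ulbp1 the difference was -0.08 (95% interval -0.58 to 0.42). None of the 4 genes past the filter was called, against 0% of all genes tested: edgeR called no gene here, with 801 genes at an unadjusted p under 0.05, and DESeq2 called 36. Fibroblast markers in tumour-like cells summed to 2406 to 3138 CPM in the sedentary and 2011 to 2120 CPM in the exercise libraries, also without overlap. Their part in the Raet1e values was not tested.

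In myeloid-like cells Raet1e went the other way, with -1.14 (95% interval -2.52 to 0.24, adjusted p = 1), and the sum of Raet1e and Raet1d was 10.8 ± 10.2 CPM in the sedentary and 5.44 ± 1.63 CPM in the exercise libraries (SD, n = 3 each, exact permutation p = 0.6). The high value came from sedentary library 2, which held 50 of the 96 Raet1e UMIs of this class. Without it Raet1e did not pass the filter in myeloid-like cells. Klrk1 differed by 0.26 (95% interval -0.26 to 0.78) and Ulbp1 by -0.12 (95% interval -0.65 to 0.41). None of the 5 genes past the filter was called, against 0% of all genes tested; edgeR called no gene, with 340 at an unadjusted p under 0.05, and DESeq2 called 3. The difference between the exercise effects of tumour-like and myeloid-like cells was 1.75 for Raet1e (95% interval 0.80 to 2.70, adjusted p = 0.757). None of the 10 genes passed this edgeR test, against 0% of all genes tested, with 689 genes at an unadjusted p under 0.05 and 3 called by DESeq2. Without the filter on low counts the adjusted p of Raet1e was 0.0104, and without sedentary library 2 its difference was 1.00 (adjusted p = 0.83). Between NK-like and CD8 T-like cells none of 8 genes passed the test of a difference in exercise effect, against 0.0579% of all genes tested; for Klrk1 the difference was 0.04 (95% interval -0.25 to 0.34).

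**Figure D5:**
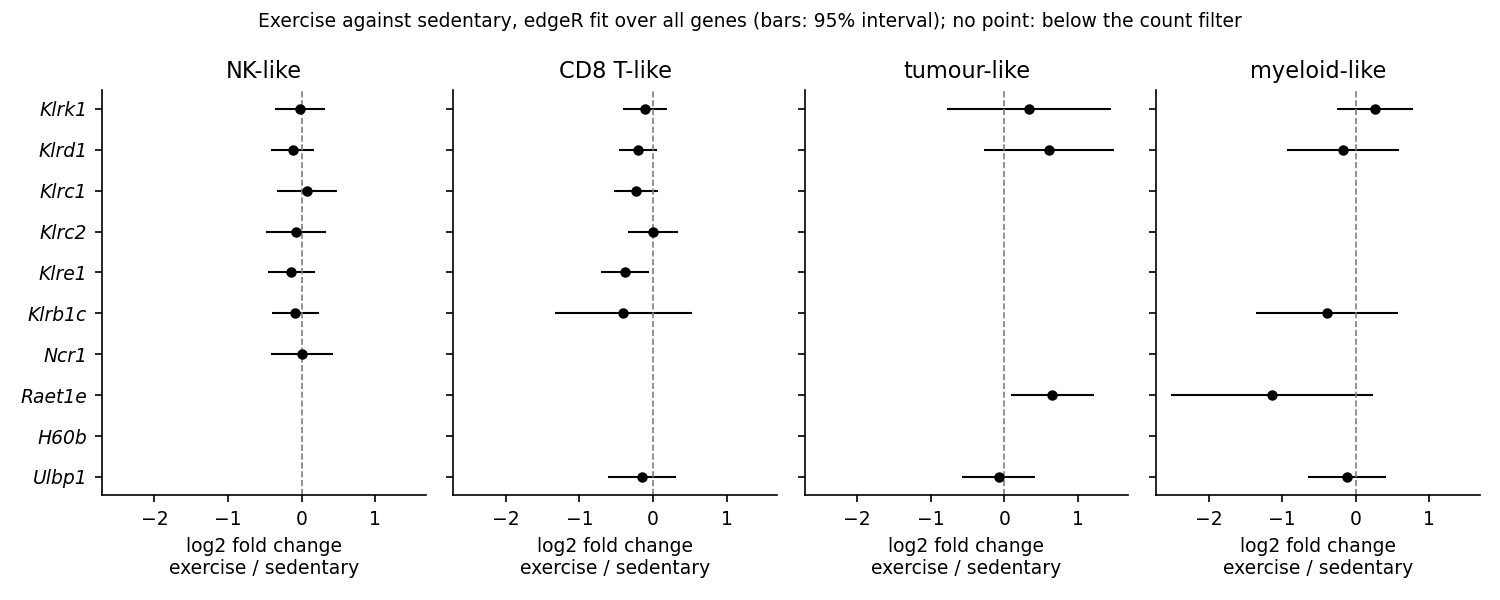
Fitted log2 fold change of exercise over sedentary (x axis) for each receptor and ligand gene (y axis) in 4 gated classes; bars are 95% intervals and genes without a point did not pass the filter on low counts. Most intervals cross 0; those of Klre1 in CD8 T-like cells (-0.71 to -0.06) and Raet1e in tumour-like cells (0.09 to 1.21) do not, and neither passed after adjustment.

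Genes called for exercise at an adjusted p under 0.05 in the lymphoid classes were few and were named after their values were seen. In NK-like cells the chemokine gene Ccl4 rose from 13.4, 52.5 and 53.4 CPM to 247, 147 and 170 CPM (log2 difference 2.12, adjusted p = 0.0172), and the interferon-induced gene Iigp1 rose from 53.8, 114 and 66.8 CPM to 181, 224 and 213 CPM (1.36, adjusted p = 0.0390). Both groups of values were apart. In CD8 T-like cells the protease inhibitor gene Serpinb9b fell from 28.1, 42.4 and 22.6 CPM to 6.27, 5.13 and 6.38 CPM (-2.43, adjusted p = 0.00879). No gene of the adaptor, receptor, ligand or shedding lists passed for exercise in any of the 4 classes. Without sedentary library 1 neither Ccl4 nor Iigp1 was called, and 1 of them was lost without sedentary library 3, exercise library 6 or exercise library 8 and with doublets kept. Under the stricter gate neither was called. Serpinb9b was not called without exercise library 8 or under the stricter gate.

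Across the 13 gated classes the genes most like each of 7 genes were read as a description, by Pearson's r of log2(CPM + 1) over class means, which share libraries and differ in depth and number of cells. Marker genes of the gates and the 10 receptor and ligand genes were left out of the search and could not appear. Genes with no class mean of at least 1 CPM were left out too. Closest to Klrc1 were Fasl, the death ligand of cytotoxic cells (r = 0.99), Kcnk7 (0.98) and Gm33104 (0.97). Closest to Ncr1 were its fellow NK gene Klrb1a (0.93), Eya2 (0.90) and the granzyme gene Gzmg (0.89), and closest to Klrb1c were Gm5127 (0.94), Gzmg (0.93) and Klrb1a (0.92). Klrk1 was followed by Gm15232 (0.91), Ppargc1b (0.86) and Klri2 (0.86). Ulbp1 was followed by Otud4 (0.94), Ttf2 (0.93) and Pkp4 (0.91), and Raet1e by Gm10848 (0.89), Ninl (0.88) and Acpp (0.87). For Ulbp1 the highest class mean was that of CD4 T-like cells, from 10 UMIs. For Raet1e the highest class mean was that of the 32 endothelial-like cells and rested on 9 UMIs, and for H60b (Ppp1r13b at 0.89) the order of classes rested on 60 UMIs in all.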

How the data were processed

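Raw UMI counts were deposited by the authors as 1 gene by cell matrix per library, made from 10x 3' version 3 libraries; Cell Ranger 6.1.2 and mm10 are named in the submitters' processing notes, and the matrix headers name software version 3.1.0, per the file headers. The labels do not say whether a library pools tumours, so p-values measure the spread between these samples. Barcodes needed at least 300 genes, at least 500 UMIs and a mitochondrial share of no more than 20%, and doublets called by Scrublet in scanpy 1.11.5 (0.946 to 2.42% of cells) were removed. Classes came from marker gates: NK-like cells needed Nkg7, Tyrobp or Fcer1g, and 3 of 11 NK markers, with no Cd8a, Cd8b1 or Cd4; CD8 T-like cells needed 2 of 6 T-cell markers and Cd8a or Cd8b1; myeloid-like cells needed Ptprc and 5 of 13 markers; tumour-like cells needed 1 of 6 markers and no Ptprc, and cells over 1000 CPM of Col1a1 were left out of them. Tumour-like cells also had to lack Tyrobp, Cd3d, Cd3e, Cd3g, Trac, Pecam1, Cdh5 and Rgs5 and to hold at most 2 of the 13 myeloid markers. Myeloid-like cells could hold 1 of the 6 T-cell markers. The 24 cells that met more than 1 gate joined no class. The gates used none of the 10 genes, while Scrublet was given all genes.

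Counts were summed per library and class and tested with edgeR 4.0.16 in R 4.3.3 (TMM scaling, filterByExpr, quasi-likelihood, Benjamini-Hochberg over all genes tested, called at an adjusted p under 0.05); class comparisons had the library as a block. CPM are the UMIs of a gene divided by all UMIs of the class and library and scaled to a common total. Shares were compared in cells thinned to 1500 UMIs with exact permutation tests (scipy 1.17.1). Intervals on counts cover counting error only. Alternatives were RLE scaling, no count filter, DESeq2 1.42.0, a stricter gate, a mitochondrial limit of 10%, doublets kept, and each library left out. Tests were checked on simulated data. The 10 genes were named in every comparison; list genes were named by smallest adjusted p, at most 4 per list and comparison, among those with at least 20 UMIs per library. Members and lists were chosen with earlier results of these data known. The splits of CD8 T-like and myeloid-like cells by cycle genes, and of myeloid-like cells by C1q genes, were added after the data were seen.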

Additional observations from a re-analysis of the deposited data

Results flagged for a closer look

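Named after their values were seen, 4 genes outside the receptor and ligand set stood apart here. The exercise effect differed between NK-like and CD8 T-like cells for each of them by a test of the difference itself (edgeR's quasi-likelihood test, library as a block, Benjamini-Hochberg over 6907 genes). For Nupr1, a stress-response gene, the difference was 2.17 on the log2 scale (adjusted p = 0.000142): NK-like cells held 53.8, 49.6 and 142 CPM in the sedentary and 324, 194 and 186 CPM in the exercise libraries, and CD8 T-like cells held 48.8, 67.8 and 183 CPM and 62.4, 64.7 and 56.0 CPM. For Iigp1 the difference was 1.92 (adjusted p = 0.00588). For the chemokine gene Ccl3 it was 2.79 (adjusted p = 0.0296), with 16.8, 0 and 2.67 CPM in NK-like cells of the sedentary and 71.8, 36.2 and 15.9 CPM in those of the exercise libraries, which overlap, and for Styk1 it was 1.84 (adjusted p = 0.0488); DESeq2 gave adjusted p-values of 0.556 and 0.720 for these 2 genes. Under the stricter gate none of the 4 differences was called. Leaving out 1 library at a time gave 1 to 12 called genes, with 1 left without sedentary library 2, 2 without sedentary library 3 or exercise library 5, 9 without exercise library 8 and 12 without sedentary library 1.

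Cells that met no gate, which enter no comparison, held 28.6% of all receptor UMIs and 47.7% of all ligand UMIs. By gene the share ran from 25.4 to 31.8% for receptors and from 26.7 to 48.1% for ligands, and 23906 of the kept cells were of this kind. Klrd1 was read at 329 CPM over all libraries in the 122 plasmacytoid dendritic-like cells, a class outside the comparisons, at 248, 426 and 478 CPM in the sedentary and 389, 288 and 287 CPM in the exercise libraries. Klrk1 made up 13.2% of the UMIs of both genes in those cells. Their NK markers summed to 6.19 to 34.1 CPM in the sedentary and 12.5 to 480 CPM in the exercise libraries.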

How the results depend on the processing

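In 293 repeats of 25 called results on receptor and ligand genes under other settings, 268 kept their direction and side of the threshold. Of the rest, 25 lost significance and 0 changed sign. Some calls were not repeated. These were Ulbp1 between NK-like and CD8 T-like cells, the receptor genes between tumour-like and myeloid-like cells, and Klrd1 between dividing and other tumour-like cells. Of 384 repeats of 33 results that were not called, 345 kept both, 37 changed sign and 2 passed. Unfiltered counts called 11 genes for exercise in NK-like, 54 in CD8 T-like, 8 in tumour-like and 10 in myeloid-like cells, 879 between Havcr2 and Tcf7 cells, and 35 and 45 in the lymphoid and the tumour-myeloid interaction. DESeq2 called 36 genes for exercise in tumour-like and 3 in myeloid-like cells, 1174 between NK-like and CD8 T-like cells, 2 and 3 in the interactions, and 1150 and 1837 between dividing and other CD8 T-like and myeloid-like cells. The stricter gate called 0 genes for exercise in NK-like and 6 in CD8 T-like cells, 194 between these classes, 0 in their interaction, 390 and 1754 for dividing cells and 1836 for C1q cells, and gave a difference in the NK-like share of 0.117 percentage points. It gave no value for the comparison of Havcr2 with Tcf7 cells. With doublets kept 1 gene was called for exercise in NK-like cells. Leaving out 1 library at a time gave 0 to 3 called genes for exercise in NK-like, 0 to 4 in CD8 T-like and 0 to 1 in tumour-like cells, 222 to 351 between Havcr2 and Tcf7 cells, and 1 to 12 and 0 to 4 in the interactions. The cause of these changes was not tested.

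Among the repeated results, changes of sign were confined to exercise effects and interactions that were not called. In NK-like cells Ncr1 was -0.000422 with DESeq2, -0.00796 with the mitochondrial limit of 10% and -0.0185 with doublets kept, and Klrk1 was 0.49 and Klre1 0.20 under the stricter gate. In CD8 T-like cells Klrc2 was 0.00337 with RLE scaling, 0.00902 unfiltered and 0.00224 with doublets kept. Ulbp1 in tumour-like cells was 0.0377 under the stricter gate. With 1 library left out at a time, the NK-like effects ran from -0.13 to 0.0952 for Klrk1, from -0.0181 to 0.25 for Klrc1, from -0.26 to 0.0431 for Klrc2 and from -0.15 to 0.21 for Ncr1. Those in CD8 T-like cells ran from -0.20 to 0.0292 for Klrk1, from -0.14 to 0.0985 for Klrc2 and from -0.61 to 0.0843 for Klrb1c. Ulbp1 ran from -0.34 to 0.0813 in tumour-like and from -0.34 to 0.0598 in myeloid-like cells, where Klrd1 ran from -0.49 to 0.12 and Klrb1c from -0.56 to 0.15. The lymphoid interaction ran from -0.0527 to 0.13 for Klrd1 and from -0.17 to 0.57 for Klrb1c, and the tumour-myeloid interaction of Ulbp1 from -0.15 to 0.34. Results that newly passed were the Raet1e interaction without the filter (adjusted p = 0.0104) and Klre1 in dividing CD8 T-like cells without sedentary library 1 (-0.39, adjusted p = 0.0401). No paired analysis was possible because the sedentary libraries (1, 2 and 3) and the exercise libraries (5, 6 and 8) share no replicate number. Depth limits H60b, with 60 UMIs in all.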
